A study of Mus musculus with 6 samples.

Results

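The tripartite motif (TRIM) family of ubiquitin ligases was described in mouse bone marrow-derived macrophages by RNA sequencing. Its members were taken as all genes of the deposited table whose symbol is Trim followed by a number, without pseudogenes and without Trim25 and Trim56. This gave 66 of the 55335 genes of the table. TRIM proteins carry a RING domain, B-box zinc fingers and a coiled coil, followed by a C-terminal domain that differs between subfamilies. The RING domain passes ubiquitin from a conjugating enzyme to a substrate, and the C-terminal domain, most often PRY-SPRY, binds the target. In macrophages the family is known for members that interferon induces and that sense viral capsids or adjust the signalling of Toll-like receptors, RIG-I-like receptors and cGAS-STING.

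The macrophages were grown for 6 days from marrow of male wildtype C57BL/6 mice aged 6 to 8 weeks. All 6 cultures received conditioned medium of pancreatic acinar cells, mixed 1:1, for 4 h. For this medium, acinar cells were exposed for 5 h to 200 nM caerulein, a secretagogue peptide of experimental acute pancreatitis. In the CM + 4OI group (3 cultures) 200 µM of 4-octyl itaconate (4OI) was present as well. This compound is itaconate, a metabolite that activated macrophages make, joined to an octyl chain so that it enters cells. The CM group (3 cultures) had the medium alone. The series title names inhibition of STING and activation of NRF2, and the comparison shows how transcript levels with 4OI differ from those without it. No culture without conditioned medium was analysed here, so every level below is one under that medium.

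Levels are given as FPKM, fragment counts scaled to transcript length and library size, and each list of per-library values is in the order of replicates 1, 2 and 3. Depth, estimated from the smallest step of the values, was 22.1 M to 25.4 M fragments in CM + 4OI and 18.1 M to 24.4 M in CM, so that a transcript 2000 nt long had 36.1 to 50.8 fragments for each FPKM. All 8 macrophage markers examined averaged above 1 FPKM. Lyz2, which makes up most of their sum, was at 8557 to 9018 FPKM in CM + 4OI and 8185 to 8763 in CM. Of the 8, 4 were lower in every CM + 4OI library than in any CM library: Mertk at 12.1 to 14.0 FPKM in CM + 4OI and 21.7 to 24.7 in CM, Fcgr1 at 353 to 412 FPKM in CM + 4OI and 525 to 567 in CM, Spi1 at 88.3 to 102 FPKM in CM + 4OI and 117 to 131 in CM and Itgam at 113 to 133 FPKM in CM + 4OI and 136 to 155 in CM. The 7 acinar markers, for the source of the medium, summed to 7.07 to 12.2 FPKM in CM + 4OI and 5.88 to 9.998 in CM. The 5 lymphocyte markers summed to at most 0.0729 FPKM in CM + 4OI and 0.225 in CM, with Cd3g at 0. The 3 dendritic cell markers summed to 0.466 to 0.481 FPKM in CM + 4OI and 0.701 to 0.761 in CM, with Flt3 at 0. The 6 fibroblast markers summed to 8.12 to 29.8 FPKM in CM + 4OI and 5.85 to 52.9 in CM, with the highest sum in replicate 2 of both groups. Each marker was also highest there, except Lum in CM + 4OI, at 0.0792, 0.0649 and 0.104 FPKM. The 5 neutrophil markers summed to 41.1 to 52.0 FPKM in CM + 4OI and 35.7 to 65.7 in CM, with Ly6g at 0. Of the 3 endothelial markers, 2 were lower in CM + 4OI without overlap, Kdr at 2.34 to 3.15 FPKM in CM + 4OI and 8.28 to 11.6 in CM and Cdh5 at 1.11 to 2.34 FPKM in CM + 4OI and 3.12 to 3.81 in CM, while Pecam1 overlapped at 0.606 to 1.29 FPKM in CM + 4OI and 0.563 to 1.13 in CM. The part of these markers in the results below was not tested. In these bulk samples, fewer cells of a type and less RNA per cell cannot be told apart.

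Of the 66 members, 33 had a mean of at least 1 FPKM over the 6 libraries and were tested. A gene was called when its limma adjusted p was under 0.05, with Benjamini-Hochberg adjustment over all 10468 genes tested. With 4OI added, 9 members were lower, 11 were higher and 13 were not called. Over all genes tested, 13.2% were called lower, 19.3% higher and 32.5% in either direction. The median log2 fold change was 0.06 over the 33 members and 0.064 over all genes. The groups did not overlap in 23 of the 33 members, against 49.0% of all genes tested, and the 3 of these that were not called were Trim33, Trim62 and Trim24. The number of higher members fell to 3 to 6 when any 1 library was left out, while 8 or 9 members were lower in each of those fits. With median-of-ratios scaling, 9 members were lower and 6 higher, and over all genes 1696 were lower and 1371 higher, against 1385 and 2020 as reported. Per library, the FPKM of all 66 members summed to 489, 498 and 496 FPKM in CM + 4OI, against 619, 613 and 613 FPKM in CM. The sums did not overlap between the groups (exact permutation test over samples, two-sided, p = 0.1, the smallest that 3 against 3 allows).

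**Figure D1:**
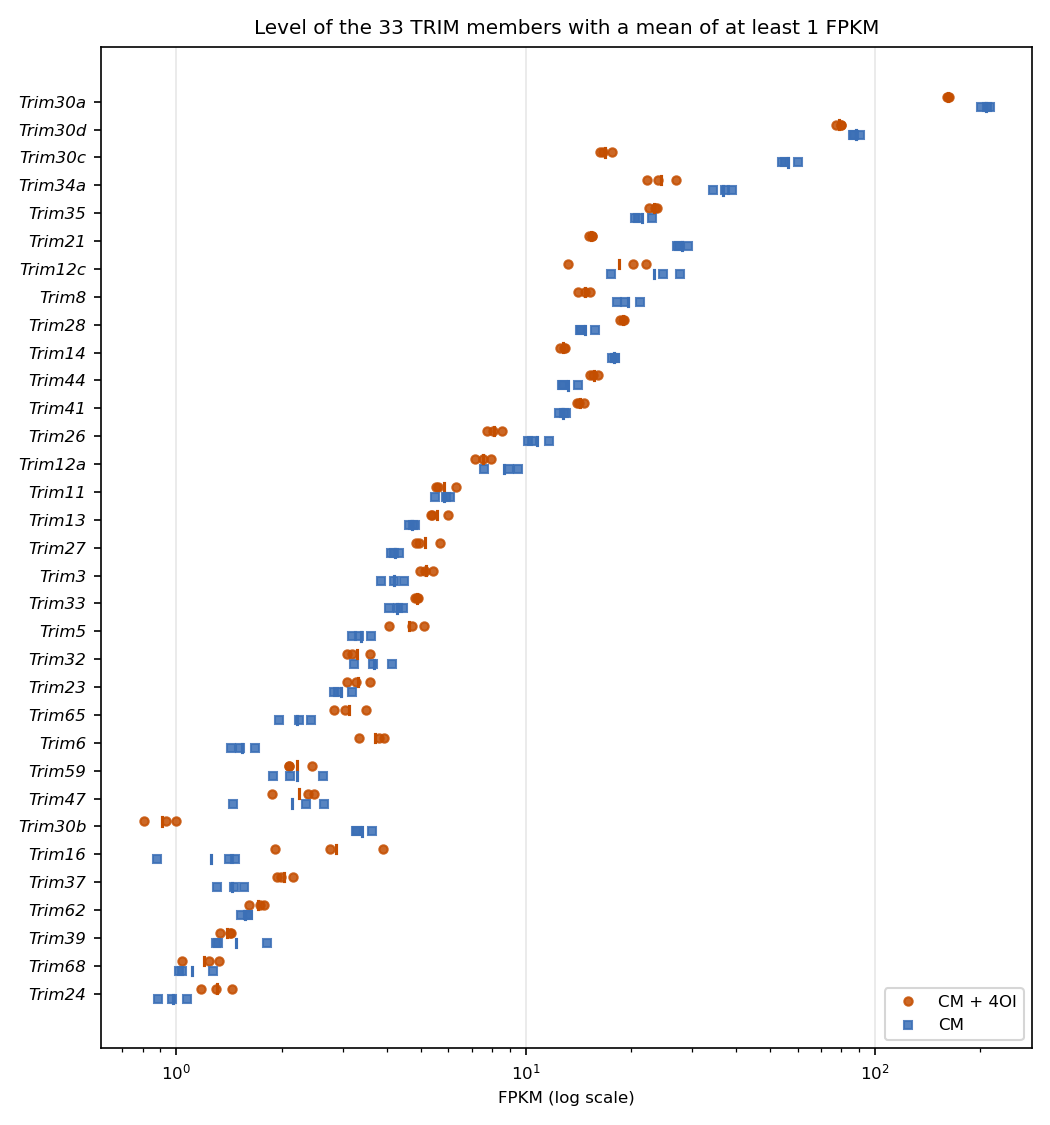
FPKM on a log scale (x axis) of the 33 tested members (y axis, ordered by mean), with 1 point per library, orange circles above for CM + 4OI and blue squares below for CM, and a vertical tick at each group mean. Trim30a, at 162 and 207 FPKM on average in CM + 4OI and CM, stands above the other members, and the groups of Trim30c, Trim30b, Trim21 and Trim6 lie well apart.

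The family's levels were dominated by a single gene group, the Trim30 paralogs, PRY-SPRY proteins that rodents carry beside the Trim5 locus. Together they held 53.4, 51.4 and 52.1% of the members' summed FPKM in CM + 4OI and 58.6, 56.5 and 58.3% in CM. Trim30a, which in mouse macrophages is known to restrain Toll-like receptor signalling by removing TAB2 and TAB3 (ENSMUSG00000030921, chromosome 7, 104409025 to 104465193, minus strand), was at 163, 161 and 161 FPKM in CM + 4OI, against 209, 201 and 213 FPKM in CM. The CM libraries were all higher, and the mean fell 1.28-fold with 4OI (log2 fold change -0.36, SE 0.037, limma adjusted p = 0.000732). Trim30a made up 33.3, 32.4 and 32.4% of the summed FPKM of all members in CM + 4OI and 33.7, 32.8 and 34.7% in CM, shares that overlapped. Trim30c (ENSMUSG00000078616, chromosome 7, 104382065 to 104400837, minus strand) was at 17.6, 16.4 and 16.6 FPKM in CM + 4OI, against 60.1, 55.3 and 54.0 FPKM in CM. It fell 3.35-fold, with the lowest log2 fold change of the 33 members (log2 fold change -1.68, SE 0.055, limma adjusted p = 1.35e-05). Trim30b (ENSMUSG00000052749, chromosome 7, 104355382 to 104369884, minus strand) was at 0.805, 0.997 and 0.932 FPKM in CM + 4OI, against 3.63, 3.28 and 3.28 FPKM in CM. It fell 3.73-fold (log2 fold change -1.20, SE 0.071, limma adjusted p = 8.57e-05), and since 1 was added to each value before taking logs, the log2 scale understates this change of a low gene. Trim30d (ENSMUSG00000057596, chromosome 7, 104470014 to 104507849, minus strand) was at 79.8, 77.5 and 79.8 FPKM in CM + 4OI, against 90.4, 86.5 and 87.0 FPKM in CM. Its groups did not overlap, but the difference was small, a 1.11-fold fall (log2 fold change -0.15, SE 0.037, limma adjusted p = 0.0222). The call on Trim30d was lost without CM + 4OI replicate 2 or 3, or CM replicate 1 or 3 (adjusted p 0.0535 to 0.0829), and without replicate 2 of both groups (0.118), and with quantile normalization (0.207).

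The 4 paralogs changed by unequal amounts. Trim30c held 6.76, 6.39 and 6.43% of their summed FPKM in CM + 4OI, against 16.6, 15.98 and 15.1% in CM. Trim30d held 30.6, 30.2 and 30.9% in CM + 4OI and 24.9, 25.0 and 24.3% in CM. Neither share overlapped between the groups (exact permutation tests over samples, two-sided, p = 0.1 each, the smallest possible here). The ratio of Trim30c to Trim30a was 0.108, 0.101 and 0.103 in CM + 4OI, against 0.288, 0.275 and 0.254 in CM. Most of their transcript sequence was distinct. Of all 100 nt stretches of their annotated transcripts, Trim30b and Trim30c shared 0% with another gene, and Trim30a and Trim30d shared 4.41% and 4.57% with each other.

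**Figure D2:**
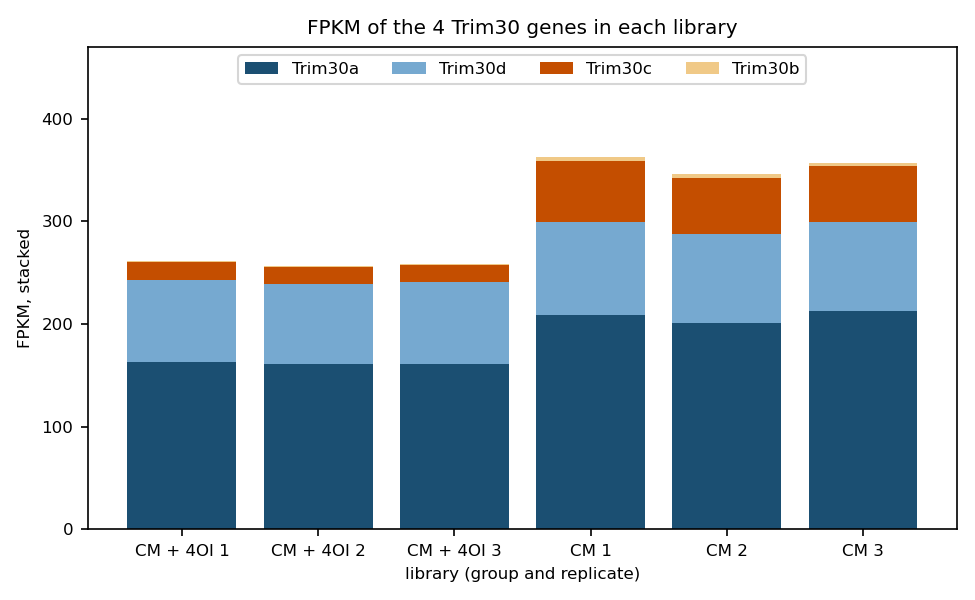
FPKM (y axis) of the 4 Trim30 genes stacked in each of the 6 libraries (x axis), CM + 4OI on the left and CM on the right. The stacks reach 261, 256 and 258 FPKM in CM + 4OI and 363, 346 and 357 FPKM in CM, and the Trim30c segment is the one whose share differs most.

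The Trim30 genes lie in a cluster of 10 members within 289.1 kb of chromosome 7 (104218793 to 104507849, mm10 coordinates of GENCODE release M21), and this cluster split in direction. Of its 9 tested members 5 were lower, 2 were higher and 2 were not called, with a median log2 fold change of -0.32. Among all genes tested, 13.2% were called lower and 19.3% higher, with a median of 0.064. In order along the chromosome the genes were Trim6 (higher), Trim34a (lower), Trim5 (higher), Trim12a (not called), Trim34b (not tested), Trim12c (not called), Trim30b, Trim30c, Trim30a and Trim30d (all lower). The cluster held 63.8, 64.8 and 64.3% of the summed FPKM of all members in CM + 4OI and 70.3, 69.6 and 69.9% in CM.

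Trim6 (ENSMUSG00000072244, chromosome 7, 104218793 to 104235152, plus strand), whose human counterpart is known to build free ubiquitin chains that activate the kinase IKKe, was at 3.34, 3.94 and 3.80 FPKM in CM + 4OI, against 1.52, 1.67 and 1.43 FPKM in CM. It rose 2.40-fold (log2 fold change 0.88, SE 0.075, limma adjusted p = 0.000313), the highest log2 fold change among the 33 members. Its neighbour Trim34a (ENSMUSG00000056144, chromosome 7, 104244457 to 104262234, plus strand) was at 22.2, 26.9 and 23.9 FPKM in CM + 4OI, against 34.3, 37.2 and 39.0 FPKM in CM. Trim34a fell 1.51-fold (log2 fold change -0.58, SE 0.081, limma adjusted p = 0.00248). Human TRIM34 is known as a retroviral restriction factor that acts with TRIM5. Of the 100 nt stretches of Trim34a, 39.0% also occur in Trim34b or Gm47248, so its value is uncertain to that extent, and 23.5% of its exon length overlaps Gm47248 on the other strand. The ratio of Trim6 to Trim34a was 0.151, 0.146 and 0.159 in CM + 4OI, against 0.0443, 0.0450 and 0.0367 in CM, given as a description since the members moved in opposite directions. The genes lie 9304 nt apart on the same strand.

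Trim5 (ENSMUSG00000060441, chromosome 7, 104263386 to 104288094, minus strand), a mouse gene of the locus that in primates encodes the capsid sensor TRIM5, was at 4.06, 5.11 and 4.72 FPKM in CM + 4OI, against 3.17, 3.34 and 3.62 FPKM in CM. It rose 1.37-fold (log2 fold change 0.36, SE 0.084, limma adjusted p = 0.0187), and the call was lost without CM + 4OI replicate 2 or 3, or CM replicate 1 (adjusted p 0.0568 to 0.0642), and without replicate 2 of both groups (0.114). Its paralogs on the same strand were not called. Trim12a was at 7.54, 7.95 and 7.15 FPKM in CM + 4OI, against 7.58, 9.48 and 8.96 FPKM in CM (limma adjusted p = 0.165, or 0.035 without CM replicate 1, when it was called lower). Trim12c, which is known in mouse to act with TRAF6 in interferon and NF-kB signalling, was at 13.2, 22.0 and 20.3 FPKM in CM + 4OI, against 24.7, 27.6 and 17.5 FPKM in CM (log2 fold change -0.32, SE 0.23, limma adjusted p = 0.33), with wide spread and overlapping groups. The ratio of Trim5 to Trim12a was 0.539, 0.643 and 0.661 in CM + 4OI, against 0.419, 0.352 and 0.404 in CM. The 100 nt stretches that Trim5, Trim12c and Trim12a share with other genes made up 11.7%, 8.05% and 3.29% of their transcripts. Trim34b, the member nearest below the filter with a mean of 0.866 FPKM, was at 0.888, 0.970 and 0.732 FPKM in CM + 4OI, against 1.06, 1.01 and 0.538 FPKM in CM.

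**Figure D3:**
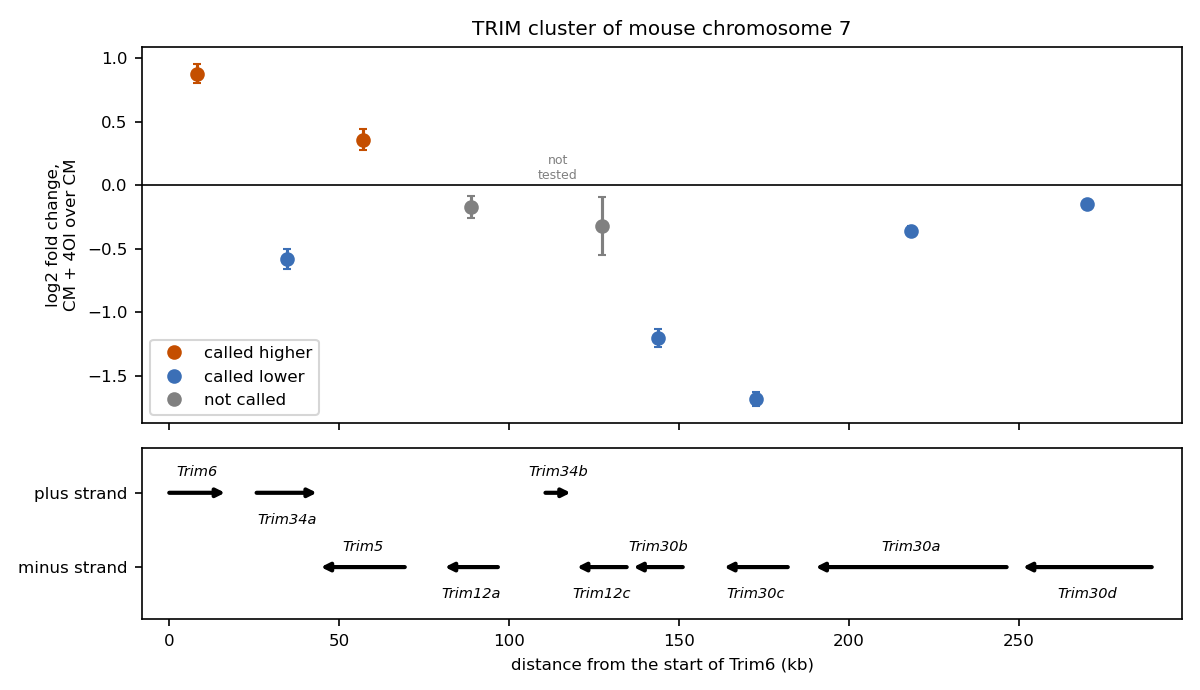
Log2 fold change of FPKM + 1, CM + 4OI over CM (upper y axis, bars are standard errors), and gene position and strand as arrows (lower panel) for the 10 cluster members, against the distance from the start of Trim6 in kb (x axis). Trim6 and Trim5 lie above 0, at 0.88 and 0.36, between and beside members that lie below 0.

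The promoters of the cluster show how alike some of its members are. RefSeq promoter windows, which run from 250 bases before to 50 after a transcription start (GRCm38.p6), matched 51 of the 66 members. They were searched on both strands for GAAA, any 2 bases and GAAA again, the core of the interferon-stimulated response element (ISRE) to which interferon regulatory factors bind. The stretches before the start that hold this motif are shown for 4 cluster members and for Trim26, read 5′ to 3′ on the strand of the gene, with the match in capitals (here the motif is on the opposite strand, so that it reads as TTTC, 2 bases and TTTC). They lie at chr7:104465194-104465274, chr7:104507850-104507935, chr7:104288107-104288200 and chr7:104353363-104353423 on the minus strand, and for Trim26 at chr17:36836941-36837046 on the plus strand.
Trim30a: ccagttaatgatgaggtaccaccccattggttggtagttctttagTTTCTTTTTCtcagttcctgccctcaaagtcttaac
Trim30d: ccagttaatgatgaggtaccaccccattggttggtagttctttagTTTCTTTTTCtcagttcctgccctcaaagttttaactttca
Trim5: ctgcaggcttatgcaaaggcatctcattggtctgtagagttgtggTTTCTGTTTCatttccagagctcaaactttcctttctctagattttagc
Trim12c: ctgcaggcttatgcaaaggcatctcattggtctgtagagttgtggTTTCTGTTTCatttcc
Trim26: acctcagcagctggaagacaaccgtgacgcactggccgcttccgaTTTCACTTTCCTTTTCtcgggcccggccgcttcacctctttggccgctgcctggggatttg
Trim30a and Trim30d were identical in 80 of the 81 bases compared, and Trim5 and Trim12c in all 61 bases compared, with the matches set above each other. The comparison of Trim5 with Trim12c stopped at the annotated gene of Trim12c, and their windows differ shortly after that point. The stretch of Trim26 holds 2 overlapping matches. Trim30a and Trim30d, whose elements are the same, fell 1.28-fold and 1.11-fold, and Trim5, which shares its element with the uncalled Trim12c, rose. Trim30c, with the lowest log2 fold change, has no match to the ISRE core in its window.

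Over all windows, the ISRE core was found in 5 of the 7 lower members with a window (Trim21, Trim26, Trim30a, Trim30d and Trim34a), in 1 of 8 higher members (Trim5) and in 2 of the 10 uncalled members (Trim12a and Trim12c). In Trim21, Trim34a and Trim12a the match lies after the start. The only window of Trim30b, 1 of those 7 lower members, lies near 104358597. This is inside the gene, whose start is annotated at 104369884, so the sequence at that start was not searched. It occurred in 17.6% of all members with a window and in 8 of the 25 tested ones, against 4.22% of tested genes and in 3.99% of all 27025 genes with a window. TGACNNNGC, the core of the antioxidant response element of NRF2, was found in 2 of 25 tested members (Trim30b and Trim59), against 17.4% of tested genes. It was found in 0 of the 8 higher members with a window. The higher members Trim16, Trim3 and Trim65 and the lower members Trim14 and Trim8 had no window, so neither motif was searched in them. These are matches of letters in a window, not binding sites, and the factors' binding was not measured.

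Outside the cluster 4 of the 24 tested members were lower, beside 13.2% of all genes tested. Trim21, a cytosolic receptor for antibody-coated pathogens (ENSMUSG00000030966, chromosome 7, 102557921 to 102565486, minus strand), was at 15.5, 15.4 and 15.1 FPKM in CM + 4OI, against 27.2, 29.1 and 27.5 FPKM in CM. It fell 1.82-fold with small spread in both groups (log2 fold change -0.82, SE 0.042, limma adjusted p = 5.41e-05). Trim68, a PRY-SPRY member that lies on the same strand near it, was at 1.20 ± 0.147 in CM + 4OI against 1.11 ± 0.144 FPKM in CM and was not called (means ± SD of 3 libraries per group, here and below; limma adjusted p = 0.65). Trim14, which lacks a RING domain and is known as an adaptor of MAVS and a stabiliser of cGAS (ENSMUSG00000039853, chromosome 4, 46493781 to 46536141, minus strand), was at 13.0, 12.5 and 12.9 FPKM in CM + 4OI, against 18.01, 17.6 and 18.03 FPKM in CM. It fell 1.40-fold (log2 fold change -0.45, SE 0.039, limma adjusted p = 0.000325). Of its exon length, 31.3% overlaps Nans on the other strand. Without a stated strand setting the reads of this overlap cannot be assigned, and Nans itself was at 7.40 ± 0.483 FPKM in CM + 4OI and 5.95 ± 0.478 FPKM in CM.

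Trim26, in the major histocompatibility region and known to act on IRF3 and TBK1 (ENSMUSG00000024457, chromosome 17, 36837134 to 36859398, plus strand), was at 8.53, 7.74 and 8.07 FPKM in CM + 4OI, against 11.7, 10.4 and 10.2 FPKM in CM. It fell 1.32-fold (log2 fold change -0.36, SE 0.065, limma adjusted p = 0.00668), and was not called without replicate 2 of both groups (adjusted p 0.0519). Trim39, another ligase of that region, was at 1.40 ± 0.0568 in CM + 4OI against 1.48 ± 0.294 FPKM in CM (limma adjusted p = 0.776). Trim8, a ligase known to promote NF-kB activation and to bind SOCS1 (ENSMUSG00000025034, chromosome 19, 46501702 to 46516848, plus strand), was at 15.3, 14.1 and 14.8 FPKM in CM + 4OI, against 21.2, 18.3 and 19.2 FPKM in CM. It fell 1.33-fold (log2 fold change -0.38, SE 0.064, limma adjusted p = 0.00517). In Trim21, Trim14, Trim26 and Trim8 alike, every CM + 4OI library was below every CM library.

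Of the 14 members listed for a known link to interferon, 12 were tested, and 8 were lower, 2 higher (Trim6 and Trim5) and 2 not called (Trim12a and Trim12c), with a median log2 fold change of -0.36. Of the other 21 tested members 1 was lower (Trim8), 9 were higher and 11 were not called, with a median of 0.15. The interferon-linked list holds all 9 tested members of the chromosome 7 cluster counted above, so the 2 counts are not separate. Its other tested members were Trim14, Trim21 and Trim26. The shares of all genes tested, for these lists and those below, were 13.2% lower and 19.3% higher, with a median of 0.064. Of 31 interferon-stimulated genes outside the family 29 were lower, with a median of -0.82, led by Gbp2, Cmpk2 and Rsad2. Gbp2, a guanylate-binding protein, was at 49.9 ± 5.29 in CM + 4OI against 236 ± 6.82 FPKM in CM, Cmpk2, a mitochondrial nucleotide kinase, at 233 ± 23.0 in CM + 4OI against 1033 ± 39.2 FPKM in CM, and Rsad2, the antiviral protein viperin, at 525 ± 60.8 in CM + 4OI against 1881 ± 94.7 FPKM in CM (limma adjusted p = 1.48e-05, 1.78e-05 and 4.68e-05). Among 9 genes of type I interferon receptor signalling, some of which also stand in the list of interferon-stimulated genes, 7 were lower and 0 higher. The receptor inhibitor Socs1 was at 1.59 ± 0.418 in CM + 4OI against 6.24 ± 0.833 FPKM in CM and the deconjugase and receptor inhibitor Usp18 at 54.1 ± 3.51 in CM + 4OI against 134 ± 6.10 FPKM in CM (limma adjusted p = 0.000455 and 3.98e-05).

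**Figure D4:**
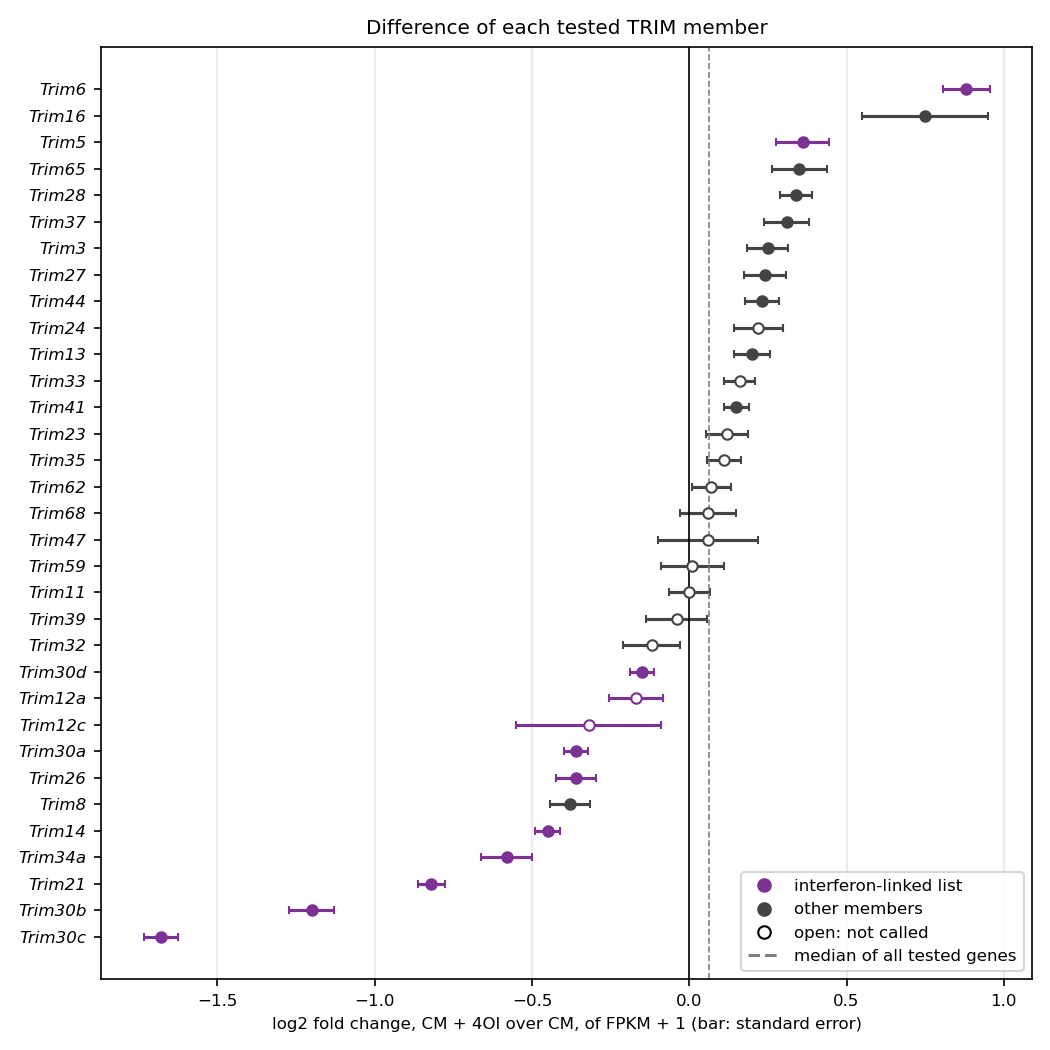
Log2 fold change of FPKM + 1, CM + 4OI over CM (x axis, bars are standard errors), of the 33 tested members (y axis, ordered by value), in purple for the interferon-linked list and in grey for the others, filled where called, with the median of all tested genes (0.064) dashed. The purple points lie at the lower end except for Trim6 and Trim5.

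The higher members outside the cluster include chromatin regulators and ligases of several subfamilies, and most of these changes were small. Trim28, the corepressor KAP1 that KRAB zinc finger proteins recruit to silence chromatin (ENSMUSG00000005566, chromosome 7, 12999114 to 13031035, plus strand), was at 19.0, 19.1 and 18.7 FPKM in CM + 4OI, against 14.4, 15.8 and 14.3 FPKM in CM. It rose 1.28-fold (log2 fold change 0.34, SE 0.051, limma adjusted p = 0.00339). The other tested PHD-bromodomain members, Trim33 and Trim24, were not called, although their groups did not overlap, as in 49.0% of all genes tested. Trim33, which acts on SMAD4 signalling, was at 4.81, 4.92 and 4.89 FPKM in CM + 4OI, against 4.07, 4.44 and 4.31 FPKM in CM (limma adjusted p = 0.0552). Trim24, a histone reader and nuclear receptor cofactor and the member nearest above the filter with a mean of 1.14 FPKM, was at 1.18, 1.30 and 1.44 FPKM in CM + 4OI, against 0.972, 1.07 and 0.887 FPKM in CM (limma adjusted p = 0.0793). Of 10 genes that work with Trim28, 5 were higher and 0 lower, beside 19.3% of all genes called higher, led by the silencing factors Mphosph8 (10.2 ± 0.261 in CM + 4OI against 7.54 ± 0.324 FPKM in CM), Morc2a (7.60 ± 0.107 in CM + 4OI against 5.78 ± 0.450 FPKM in CM) and Fam208a (4.48 ± 0.107 in CM + 4OI against 3.52 ± 0.299 FPKM in CM). Their limma adjusted p was 0.00139, 0.00598 and 0.0171, and 10.7%, 7.52% and 12.9% of their exon length overlaps another gene on the other strand. Fam208a was not called without CM + 4OI replicate 2 or 3, or CM replicate 3 (adjusted p 0.0517 to 0.0628), and without replicate 2 of both groups (0.11), nor Morc2a without replicate 2 of both groups (0.0557). The other 2 were Chd3 and Setdb1 (limma adjusted p = 0.0186 and 0.0477). Chd3 was not called in 7 of 16 alternative fits (limma adjusted p up to 0.137). Setdb1 was not called in 14 of 16 (up to 0.216), among them every fit without 1 library and the replicate block (0.0505). The count of 5 fell to 2 without CM + 4OI replicate 3, without CM replicate 3 or with median-of-ratios scaling, to 3 without CM + 4OI replicate 1 or 2, without CM replicate 2 or with quantile normalization, and to 1 (Mphosph8) without replicate 2 of both groups.

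Trim16, a member without RING whose human counterpart is known to act in autophagy of damaged endomembranes and in the NRF2 response (ENSMUSG00000047821, chromosome 11, 62820231 to 62850808, plus strand), was at 1.92, 2.75 and 3.90 FPKM in CM + 4OI, against 0.880, 1.47 and 1.42 FPKM in CM. It rose 2.27-fold with the largest standard error among the called members (log2 fold change 0.75, SE 0.2, limma adjusted p = 0.0326). The call was lost without CM + 4OI replicate 2 or 3, or CM replicate 1, 2 or 3 (adjusted p 0.0506 to 0.0912), and without replicate 2 of both groups (0.113). Of its exon length, 5.19% overlaps Fbxw10 on the same strand, which was at 0.0430 FPKM in CM + 4OI and 0.0824 FPKM in CM. Trim65, known to activate the RNA sensor MDA5 (ENSMUSG00000054517, chromosome 11, 116121846 to 116131128, minus strand), was at 3.03, 2.82 and 3.48 FPKM in CM + 4OI, against 2.43, 2.25 and 1.96 FPKM in CM and rose 1.41-fold (log2 fold change 0.35, SE 0.088, limma adjusted p = 0.0234). The call did not hold without CM + 4OI replicate 1 or 3, or CM replicate 2 or 3 (adjusted p 0.0509 to 0.0694), and without replicate 2 of both groups (0.0661). Its neighbour Trim47, with 8.23% of its exon length shared with Trim65 on the same strand, was at 2.24 ± 0.317 in CM + 4OI against 2.15 ± 0.623 FPKM in CM (limma adjusted p = 0.81). Trim37, a ligase that modifies histone H2A and guards centrosome number (ENSMUSG00000018548, chromosome 11, 87127077 to 87220683, plus strand), was at 1.94, 2.15 and 1.99 FPKM in CM + 4OI, against 1.30, 1.46 and 1.57 FPKM in CM and rose 1.40-fold (log2 fold change 0.31, SE 0.071, limma adjusted p = 0.0173). That call was lost without CM + 4OI replicate 2 or 3 (adjusted p 0.0503 to 0.0651), and without replicate 2 of both groups (0.105).

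Trim3, which ends in NHL repeats (ENSMUSG00000036989, chromosome 7, 105604463 to 105633571, minus strand), was at 5.14, 4.97 and 5.43 FPKM in CM + 4OI, against 4.49, 4.21 and 3.85 FPKM in CM, a 1.24-fold rise (log2 fold change 0.25, SE 0.065, limma adjusted p = 0.0259). The call did not hold without CM + 4OI replicate 1 or 3, or CM replicate 2 or 3 (adjusted p 0.0583 to 0.0859), and without replicate 2 of both groups (0.0971). Trim27, also known as RET finger protein (ENSMUSG00000021326, chromosome 13, 21179445 to 21194724, plus strand), was at 5.70, 4.93 and 4.84 FPKM in CM + 4OI, against 4.34, 4.10 and 4.19 FPKM in CM, a 1.22-fold rise (log2 fold change 0.24, SE 0.067, limma adjusted p = 0.0373) that was lost without CM + 4OI replicate 1, 2 or 3, or CM replicate 1, 2 or 3 (adjusted p 0.0514 to 0.0946), and without replicate 2 of both groups (0.136). Trim44, which carries a zinc finger of ubiquitin-specific proteases in place of RING, was at 15.7 ± 0.429 in CM + 4OI against 13.2 ± 0.790 FPKM in CM (limma adjusted p = 0.0182), and was not called without CM + 4OI replicate 2, or CM replicate 1 or 3 (adjusted p 0.057 to 0.0664). Trim13, anchored in the endoplasmic reticulum, was at 5.58 ± 0.369 in CM + 4OI against 4.74 ± 0.104 FPKM in CM (limma adjusted p = 0.0411), and Trim41, a PRY-SPRY ligase, at 14.3 ± 0.310 in CM + 4OI against 12.8 ± 0.273 FPKM in CM (limma adjusted p = 0.0315). Both were called with all 6 libraries but in none of the fits that left 1 out, with adjusted p of 0.0653 to 0.113 for Trim13 and 0.0594 to 0.0867 for Trim41. Of these rises, those of Trim13, Trim27, Trim3, Trim41 and Trim65 were also not called with median-of-ratios scaling, which lowered the median log2 fold change of all genes by 0.062. With no filter on low values, where more genes share the adjustment, Trim3, Trim5, Trim13, Trim16, Trim27, Trim37 and Trim65 were not called.

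**Figure D5:**
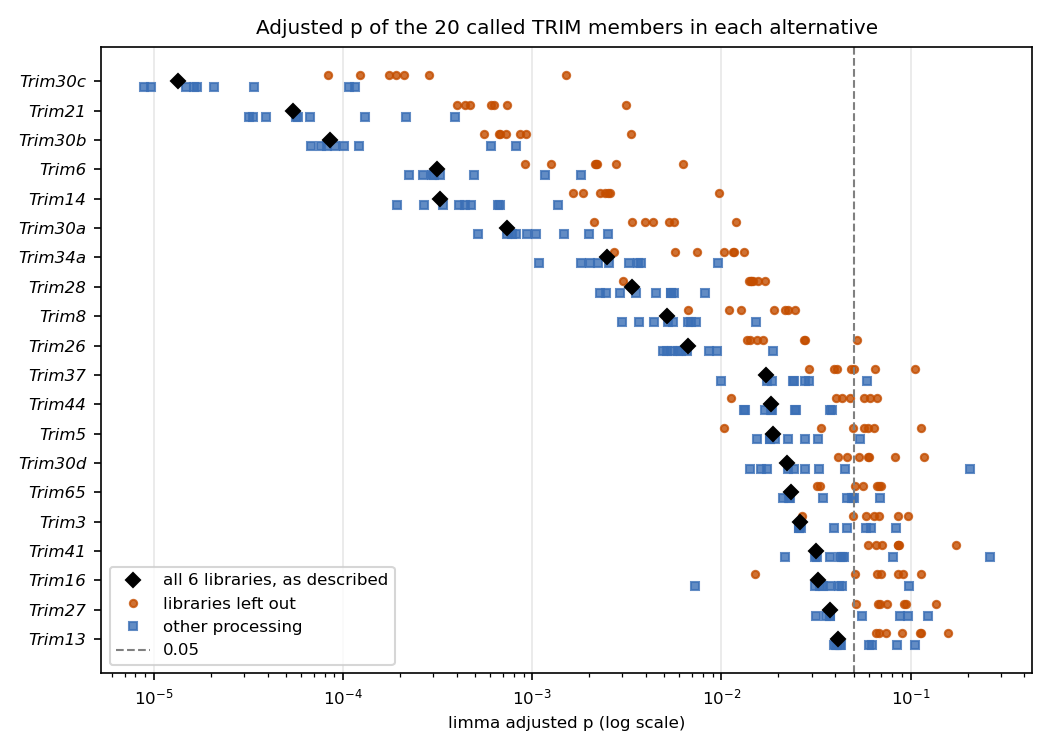
Limma adjusted p on a log scale (x axis) of the 20 called members (y axis, ordered by that value), with black diamonds for all 6 libraries, orange circles for fits that leave libraries out and blue squares for other processing, and 0.05 dashed. The 9 members from Trim30c to Trim8 stay left of 0.05 throughout, while the 10 members from Trim37 to Trim13 straddle it, and Trim26 crosses it once.

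The other tested members were not called. Trim35, a PRY-SPRY ligase and the fifth most abundant member, was at 23.7, 22.5 and 23.5 FPKM in CM + 4OI, against 20.6, 20.9 and 23.0 FPKM in CM (limma adjusted p = 0.176), with overlapping groups. Trim11, known for clearing misfolded proteins, was at 5.83 ± 0.441 in CM + 4OI against 5.83 ± 0.285 FPKM in CM (adjusted p = 0.984 by limma). Trim32, an NHL ligase, was at 3.29 ± 0.267 in CM + 4OI against 3.67 ± 0.469 FPKM in CM, Trim23, which carries an ARF GTPase domain, at 3.31 ± 0.249 in CM + 4OI against 2.96 ± 0.188 FPKM in CM, and the membrane-anchored Trim59 at 2.21 ± 0.201 in CM + 4OI against 2.21 ± 0.378 FPKM in CM (limma adjusted p = 0.347, 0.224 and 0.976). Trim62 was at 1.71 ± 0.0870 in CM + 4OI against 1.58 ± 0.0430 FPKM in CM (limma adjusted p = 0.411).

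The 33 members under the filter were not tested with the rest. Of these, 6 had a mean of 0.1 to 1 FPKM, 12 a mean above 0 but under 0.1 FPKM, and 15 were listed at 0 in all 6 libraries. Besides Trim34b, these 6 were Trim36 at 0.691 ± 0.0180 in CM + 4OI against 0.829 ± 0.153 FPKM in CM, Trim29 at 0.279 ± 0.0985 in CM + 4OI against 0.296 ± 0.0759 FPKM in CM, Trim45 at 0.199 ± 0.0572 in CM + 4OI against 0.214 ± 0.0176 FPKM in CM, Trim46 at 0.196 ± 0.0919 in CM + 4OI against 0.198 ± 0.0358 FPKM in CM and Trim43c at 0.117 ± 0.0279 in CM + 4OI against 0.140 ± 0.0368 FPKM in CM. The groups of each of these overlapped. The 12 were Trim2, Trim7, Trim9, Trim10, Trim15, Trim17, Trim43a, Trim55, Trim58, Trim66, Trim69 and Trim72, and those at 0 were Trim31, Trim38, Trim40, Trim42, Trim43b, Trim50, Trim52, Trim54, Trim60, Trim61, Trim63, Trim67, Trim71, Trim75 and Trim80. The 7 members listed for a microtubule-binding COS box (Trim9, Trim36, Trim46, Trim54, Trim55, Trim63 and Trim67), a class known from neurons and striated muscle, were all under 1 FPKM on average. This list holds only genes named Trim. The microtubule-associated Mid1, described below, is outside it and averaged 4.74 FPKM over the 6 libraries. Trim9, a neuronal ligase, was listed at 0 in all CM libraries and was at 0.0390, 0.0781 and 0.0528 FPKM in CM + 4OI. It was called with no filter (limma adjusted p = 0.0356, log2 fold change 0.08). Trim58, known from erythroid cells, was conversely listed at 0 in CM + 4OI and at 0.0207, 0.0363 and 0.0461 FPKM in CM (limma adjusted p = 0.0731 with no filter). Trim38, a regulator of TAB2 and TAB3 on the interferon-linked list, was listed at 0 in every library.

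Members of the family that carry other names were followed as well. Mefv, which encodes pyrin, the sensor of an inflammasome, was at 2.69, 2.41 and 2.23 FPKM in CM + 4OI, against 6.74, 6.00 and 5.70 FPKM in CM. It fell 2.52-fold (log2 fold change -1.05, SE 0.08, limma adjusted p = 0.000201). Pml, the organiser of nuclear bodies, was at 21.2, 16.2 and 18.1 FPKM in CM + 4OI, against 29.0, 23.7 and 30.7 FPKM in CM and fell 1.5-fold (log2 fold change -0.56, SE 0.12, limma adjusted p = 0.0159), a call that was lost without CM + 4OI replicate 3, or CM replicate 1 or 3 (adjusted p 0.0529 to 0.0533). Mid1, a microtubule-associated ligase, varied widely and was lowest in replicate 2 of both groups, at 3.69, 1.47 and 5.95 FPKM in CM + 4OI, against 9.39, 1.48 and 6.47 FPKM in CM (limma adjusted p = 0.641), and Mid2 was under the filter at 0.118 ± 0.0466 in CM + 4OI against 0.0535 ± 0.0494 FPKM in CM.

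Of the ubiquitin-conjugating enzymes that can serve RING ligases, 12 of 13 were tested, and 2 were lower, 0 higher and 10 not called, with a median log2 fold change of -0.08, beside 13.2% of all genes called lower. Ube2l6, the conjugating enzyme of the ubiquitin-like protein ISG15, was at 25.9, 23.2 and 22.8 FPKM in CM + 4OI, against 38.2, 83.9 and 36.6 FPKM in CM. CM replicate 2 stood far above the other libraries. The gene was called lower (log2 fold change -1.0, SE 0.31, limma adjusted p = 0.0474), but not without CM + 4OI replicate 1, 2 or 3, or CM replicate 1 (adjusted p 0.0533 to 0.12). Ube2l6 was also not called with no filter (0.133), a filter of 0.1 FPKM (0.0621) or quantile normalization (0.052). Nor was it called with no variance trend (0.0522) or robust variance moderation (0.0674). Ube2e1 was at 12.4, 12.2 and 10.9 FPKM in CM + 4OI, against 17.5, 16.6 and 17.0 FPKM in CM and fell 1.44-fold (log2 fold change -0.49, SE 0.058, limma adjusted p = 0.00117). An overlap with Nkiras1 on the other strand covers 16.1% of its exons. Of 16 signalling proteins that TRIM ligases are known to modify or bind, 6 were lower, 2 higher and 8 not called, with a median of -0.04. Among all genes tested, 13.2% were called lower and 19.3% higher. Mavs, 1 of the higher ones, was not called without CM + 4OI replicate 1 or 3, or CM replicate 2 or 3 (adjusted p 0.0533 to 0.067). It was also not called with median-of-ratios scaling (0.115). Irf7, Ifih1 and Ddx58 on this list are also interferon-stimulated genes of the list above. Tab2 and Tab3, which Trim30a is known to target, were not called (limma adjusted p = 0.906 and 0.0795). The gene of MDA5, Ifih1, was at 53.6, 49.4 and 50.9 FPKM in CM + 4OI, against 115, 113 and 118 FPKM in CM and fell 2.25-fold (limma adjusted p = 1.99e-05), while Trim65 rose. The transcription factor Irf7 was at 71.2 ± 7.79 in CM + 4OI against 136 ± 9.32 FPKM in CM (limma adjusted p = 0.000503). Ikbkg, which encodes the kinase subunit NEMO, was at 10.5, 21.2 and 12.8 FPKM in CM + 4OI, against 5.32, 5.20 and 4.99 FPKM in CM and rose 2.87-fold (log2 fold change 1.30, SE 0.23, limma adjusted p = 0.00622). G6pdx on the other strand overlaps 5.15% of its exons. As for Trim14, reads of the overlaps of Ikbkg and Ube2e1 cannot be assigned without a stated strand setting.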

How the data were processed

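The single deposited table holds FPKM values calculated by the authors, with 1 column for each of 6 libraries. Libraries were sequenced as 150 nt paired-end reads, per the labels' protocols. FastQC 0.11.2 and mm10 are named in the submitters' processing notes; which aligner, quantifier, annotation and strand setting were used is not given in the sources used here. Coordinates are those of GENCODE M21, whose build GRCm38 is the assembly of mm10, and 99.7% of gene IDs matched it.

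CM + 4OI was compared with CM with limma 3.58.1 under R 4.3.3. The fit used log2(FPKM + 1), let the variance follow the mean, had no block and covered the 10468 genes that averaged 1 FPKM or more. Tests were two-sided, with Benjamini-Hochberg adjustment over all genes. The fit was tested on simulated data. Log2 fold changes understate changes of low genes; ratios are of mean FPKM. Per-library sums were tested by exact permutation (scipy 1.17.1). Other steps used Python 3.11.15 with numpy 2.4.6, pandas 2.3.3 and matplotlib 3.10.9. Depth was estimated from genes with 1 transcript of at least 500 nt; intervals of counting error need counts and are not given.

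Members and lists were chosen with earlier results of these data known. Named from each list of other genes were up to 3 called genes, by absolute log2 fold change, or the gene with the highest mean where none was called; Tab2, Tab3, Mavs, Setdb1 and Chd3 were named after their values were seen, and 1 gene that the rule names is not reported here. Per-library values are given for the 16 called members of largest change, the 6 most abundant members and those nearest the filter. The labels state 3 independent cultures per group but not what a replicate number marks. Across genes, samples that share a number deviated together from their group means (Pearson r 0.344 for number 1, 0.427 for number 2, 0.185 for number 3), so the numbers were taken to pair the samples. A fit with the number as a block was an alternative, while the main fit and the permutation tests did not use the pairing.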

Additional observations from a re-analysis of the deposited data

How the results depend on the processing

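Values were recomputed under other pseudocounts (0.1), filters (none, 0.1 and 5 FPKM), scalings and variance models, with a replicate block, and after leaving out each library or both replicates numbered 2. Of the 20 called members, 9 kept their call and direction in every alternative that tested them: Trim30a, Trim30b, Trim30c, Trim34a, Trim21, Trim14, Trim8, Trim28 and Trim6. The number of lower members was 9 as reported and within 1.5 times that in all alternatives. The number of higher members, 11 as reported, was 5 with no filter, 4 at a mean of at least 5 FPKM (where 16 members were tested), 6 with median-of-ratios scaling, 7 with quantile normalization, 3 to 6 without 1 library and 3 without replicate 2 of both groups. The cause was not tested, except that the stricter filter tested fewer members and the fits without libraries had fewer samples. With the replicate block the same 20 members were called, 11 higher and 9 lower, and the block changed no other call of a named gene except that of Setdb1 (0.0505). That fit called 2336 of all 10468 genes higher and 1523 lower, against 2020 and 1385 without the block. Over all genes, 2020 were higher as reported, 1089 when both groups lacked replicate 2, and 1311 when CM + 4OI alone lacked it; leaving out any other library gave 1425 to 1855. The summed FPKM of the members differed by -120.2 (CM + 4OI minus CM) as reported, and the difference ran from -149 to -112 in the alternatives. Among the 33 tested members and the 17 other tested genes that the naming rule gave, log2 fold changes changed sign in 6 that were not called in those fits. Genes named after their values were seen, such as Tab2, are not part of this count. When libraries were left out, Trim11 ran from -0.09 to 0.03, Trim59 from -0.07 to 0.10, Trim47 from -0.11 to 0.26, Trim39 from -0.09 to 0.07 and Mid1 from -1.03 to 0.0064. Trim59 was also at -0.05 with both scalings, and Trim47 and Trim68 at -4.8e-05 and -0.0013 with quantile normalization. Depth limits the precision of the members under 0.1 FPKM.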
